A study of Homo sapiens with 4 samples.

Results

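The steady promoter peaks were 5167 pairs of H3K27Ac peaks at the starts of protein-coding genes, of 57623 peaks called in vehicle-treated LNCaP cells, in which the ratio of the height with DHT to the height with vehicle lay between 0.8 and the inverse of 0.8. A pair was a DHT peak and a vehicle peak that overlapped by at least 1 bp and that touched no other peak of the opposite list. The vehicle peak had to be 26 or more tags high and under 8000 bp wide, and it had to reach the stretch from 1000 bp before to 100 bp after a GENCODE start on hg19 (GRCh37). A height is the number of sequenced tags piled up at the top of a peak. The pairs were chosen by their heights in both lists, so the heights are described here without a test, and "steady" names this band of the ratio rather than a measured lack of change.

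LNCaP cells were grown from a lymph node metastasis of a prostate carcinoma and respond to androgens, and DHT (dihydrotestosterone) is the androgen that binds its receptor most tightly. The DHT library came from cells of passage 20 in RPMI with serum stripped of steroids by charcoal, stimulated with 10 nM DHT for 4 h, and the vehicle library from cells of the same passage and serum given ethanol. Peaks of TCF7L2, a transcription factor at the end of the Wnt pathway, came from another library, of passage 15 cells in serum that was not stripped, and an input library was not analysed here. Each condition had 1 library of 1 cell line, so nothing is known of how cultures vary, and the number of reads behind each list is unknown.

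H3K27Ac is an acetyl group on lysine 27 of histone H3, which marks nucleosomes beside active promoters and active enhancers. Most promoters of genes that every cell uses lie in CpG islands, hold binding sites for general activators such as ETS factors, NRF1, YY1, SP1 and NFY, and carry the mark in many cell types. The androgen receptor, by contrast, is known to act mostly from enhancers away from starts, and only a part of its target genes carry a binding site at the promoter itself.

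The sequences that follow show the kinds of promoter found among the steady pairs, read from GRCh37 in the direction of the gene from 250 bp before to 50 bp after the start. The first 4 hold motifs of promoter-binding factors or the TATA box, and each gene had the tallest steady pair with the motif named on the chromosomes considered for printing. Capitals mark GGGCGG (SP1), CCAAT (NFY) and CCGGAAG (ETS) on either strand in MTARC1, GCGCATGCG (NRF1) and AAGATGGCG (YY1) in EIF2B5, 2 copies of TGACGTCA (the cAMP response element, CRE) in UBE2H, and TATAAA in H2AC20.
MTARC1, chr1:220960005-220960304, plus strand: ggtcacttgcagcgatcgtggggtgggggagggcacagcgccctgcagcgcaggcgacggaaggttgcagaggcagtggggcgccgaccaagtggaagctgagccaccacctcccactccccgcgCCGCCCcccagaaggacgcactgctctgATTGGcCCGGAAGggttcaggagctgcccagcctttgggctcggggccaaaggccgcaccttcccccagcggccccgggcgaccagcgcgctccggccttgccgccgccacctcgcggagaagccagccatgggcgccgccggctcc
EIF2B5, chr3:183852896-183853195, plus strand: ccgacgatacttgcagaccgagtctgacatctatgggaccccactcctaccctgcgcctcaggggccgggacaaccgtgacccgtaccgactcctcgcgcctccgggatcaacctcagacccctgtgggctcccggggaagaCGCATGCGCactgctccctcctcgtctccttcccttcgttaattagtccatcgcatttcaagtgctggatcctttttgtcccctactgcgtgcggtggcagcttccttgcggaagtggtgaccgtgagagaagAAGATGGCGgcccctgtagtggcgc
UBE2H, chr7:129592751-129593050, minus strand: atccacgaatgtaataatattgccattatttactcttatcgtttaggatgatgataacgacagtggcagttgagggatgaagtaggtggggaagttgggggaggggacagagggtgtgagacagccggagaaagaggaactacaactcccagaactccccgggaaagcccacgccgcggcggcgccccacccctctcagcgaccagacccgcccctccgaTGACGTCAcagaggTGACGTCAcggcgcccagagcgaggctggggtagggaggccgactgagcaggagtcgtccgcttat
H2AC20, chr1:149858218-149858517, plus strand: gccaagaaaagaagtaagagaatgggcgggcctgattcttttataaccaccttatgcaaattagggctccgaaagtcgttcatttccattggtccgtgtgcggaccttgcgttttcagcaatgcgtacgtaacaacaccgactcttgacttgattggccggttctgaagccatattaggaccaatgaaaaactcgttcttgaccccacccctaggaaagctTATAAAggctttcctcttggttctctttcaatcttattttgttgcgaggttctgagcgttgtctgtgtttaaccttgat

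A smaller group of steady promoters held few CG pairs for its C and G content around the chosen start, and ACP3 was the tallest of it. ACP3 encodes prostatic acid phosphatase, a product of luminal prostate cells. Its promoter is shown with its CG pairs in capitals, of which it has 2.
ACP3, chr3:132036001-132036300, plus strand: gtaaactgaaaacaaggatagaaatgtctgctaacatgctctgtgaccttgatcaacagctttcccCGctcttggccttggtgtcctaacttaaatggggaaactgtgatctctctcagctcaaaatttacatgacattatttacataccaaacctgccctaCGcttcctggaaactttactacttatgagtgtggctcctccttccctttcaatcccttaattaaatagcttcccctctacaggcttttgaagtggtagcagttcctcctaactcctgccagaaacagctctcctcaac

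Stretches of 30 bases are also shown around CTTTGAT, the core to which TCF7L2 binds, from the 3 tallest TCF7L2 peaks in steady promoters that held it within 100 bp of their middle.
SLC25A28, chr10:101380364-101380393, plus strand: caccttttcccCTTTGATcttagaagcttc
RPS27, chr1:153963132-153963161, minus strand: ggaacgtcttaCTTTGATccgccgcagtgg
GCLC, chr6:53480639-53480668, plus strand: ttgcaagggaaCTTTGATctctactggatg

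At promoters, 80.4% of the pairs tall and narrow enough to be judged were steady (5167 of 6424, 95% Wilson interval 79.4% to 81.4%). Away from promoters the share was 54.8% (8921 of 16267, 54.1% to 55.6%), and among all 22691 such pairs it was 62.1%. The other promoter pairs lay mostly on the side of DHT, with 1083 (16.9%) over the band and 174 (2.71%) under it, against backgrounds of 17.7% and 20.2% of all pairs. Away from promoters 18.1% were over the band and 27.1% under it. All these intervals cover counting error only.

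**Figure D1:**
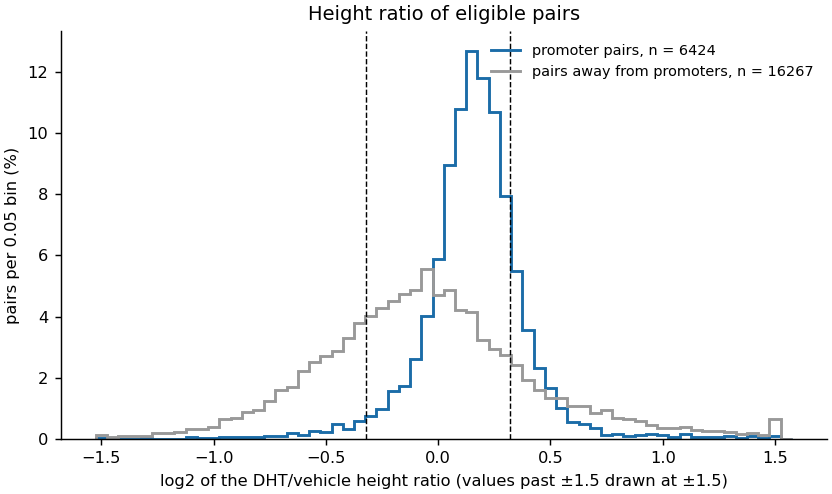
Distribution of the DHT/vehicle height ratio on a log2 scale for 6424 promoter pairs (blue) and 16267 pairs away from promoters (grey), as percent of the pairs of each place, with dashed lines at both limits of the band. The promoter pairs form a narrower peak whose median ratio is 1.12, and the other pairs a broader one whose median is 0.952.

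The 10944 vehicle peaks at promoters divided as follows. Beside the 5167 steady peaks, 3539 had fewer than 26 tags, 665 did not pair exclusively with a DHT peak, 316 were 8000 bp or wider, and 1083 and 174 fell outside the ratio limits. The steady pairs held the starts of 5768 protein-coding genes, 28.6% of 20136. A further 5.39% of genes had a promoter pair over the band and 0.556% had one under the band.

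Within the band the pairs were not centred on equality. The median height was 55 tags with DHT (quartiles 41 and 74, range 21 to 178) and 51 tags with vehicle (quartiles 37 and 68, range 26 to 173). The median ratio was 1.1 (quartiles 1.03 and 1.16). DHT gave the taller peak in 4122 pairs (79.8%) and the lower in 811 (15.7%), and 234 were equal. Steady pairs away from promoters leaned the other way, with 3731 (41.8%) taller and 4683 (52.5%) lower with DHT and a median ratio of 0.979.

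No source says that the heights were scaled to the number of reads. The median ratio of all pairs of 26 or more tags was 1.03, and with the DHT heights divided by it 5394 promoter pairs lay in the band, of which 77.0% were taller with DHT. The lean moved with base composition. Promoter pairs whose vehicle peak had under 40% GC had a median ratio of 0.959, and those with 60% or more had 1.14. Away from promoters the median ratio was 0.899 under 40% GC and 1.06 at 60% or more. Between 50% and 55% GC the median ratio was 1.13 at promoters and 1.0 away from them. The part of GC content in the heights was not tested.

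**Figure D2:**
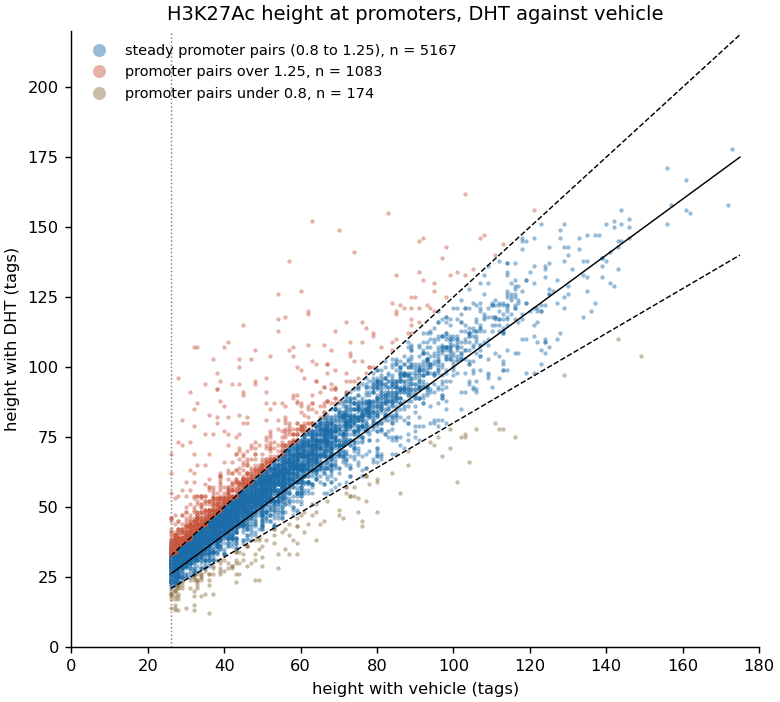
Height with DHT against height with vehicle, in tags, for each of the 6424 promoter pairs, with 5167 steady pairs in blue, 1083 pairs over the band in red and 174 pairs under the band in brown. The solid line is equality, the dashed lines are the limits of the band, the dotted line is the 26-tag limit, and most of the blue points lie above the solid line.

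The tag numbers leave each single ratio uncertain. With heights taken as tag counts, all 5167 steady pairs had an exact 95% interval of the ratio that held 1, and none had an interval that lay wholly inside the band. The choice of ratios and these tag numbers nearly fix both outcomes. Even MTARC1, the tallest steady pair, had an interval from 0.830 to 1.28. Of the 1083 pairs over the band only 199 had an interval above 1, and of the 174 under the band only 42 had one below 1. Of all 6424 promoter pairs 241 (3.75%) had an interval that left out 1, against 2764 (17%) of the 16267 pairs away from promoters. A height is a maximum over a peak and not a sum, so these intervals are approximate.

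The lists give no gap at the limits that the selection used. BCAR3 (120 tags with DHT, 96 with vehicle), MTARC2 (90 and 72) and PARP2 (90 and 72) stood at the upper limit and were kept. FAM120A (94 and 75), PYGO2 (79 and 63) and EIF4G1 (74 and 59) stood just over it and were left out. At the lower limit EIF2AK3 and CMTR1 (28 tags with DHT and 35 with vehicle in each) and SRCIN1 (61 and 76) were kept, and RHOT1 (51 and 64), BCKDHA (39 and 49) and SNX19 (70 and 88) were not. RTN4 and the pair shared by FPGT and LRRIQ3 (32 tags with DHT and 26 with vehicle in each) were kept, and RLF, EXOSC2 and the pair shared by ANKRA2 and UTP15 (31 and 25 in each) were not. In all 696 steady pairs had a ratio between 1.2 and the upper limit, 98 had one of 0.8 to 0.85, and 113 had exactly 26 tags with vehicle.

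Tall promoters were steady more often than low ones. Among promoter pairs of 26 to 39 tags with vehicle 69.2% were steady and the median ratio was 1.16, and of those with 100 or more tags 93.1% were steady and the median ratio was 1.04. The classes of 40 to 59, 60 to 79 and 80 to 99 tags lay in between, at 82.3%, 89.1% and 91.8%. The interval of a ratio narrows with height, running for example from 0.711 to 2.15 in RTN4 and from 0.830 to 1.28 in MTARC1, and its part in this order was not tested. On single chromosomes the steady share of promoter pairs ran from 74.1% on chromosome X (147 pairs) to 89.8% on chromosome 21 (59 pairs).

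The tallest steady promoters belonged to genes of quite different roles. MTARC1, a molybdenum enzyme of the mitochondrial outer membrane, had 178 tags with DHT and 173 with vehicle. RHOH, a small GTPase studied mainly in blood cells, had 158 and 172 tags. UBE2H, an enzyme that conjugates ubiquitin to proteins, had 151 and 156. RETREG1, a receptor for autophagy of the endoplasmic reticulum, had 155 and 162 tags, and ETFA, an electron carrier of fatty acid oxidation, had 153 and 146. R3HDM2 had 167 and 161, and SLC26A1, an anion transporter, had 150 and 146. DNAH5, a dynein of motile cilia, had 171 and 156, and ACP3 had 156 and 161. Of the 10 tallest pairs 6 were taller with DHT.

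Steady promoters were CpG-rich. Sequence was compared over 1 start for each gene, with 5240 starts in steady pairs, 1068 in pairs over the band, 76 in pairs under the band and 9688 without a vehicle peak. The CpG ratio is the number of CG pairs over the number that the C and G contents would give, and it is low over most of the genome because methylated CpG is lost in evolution. Its median was 0.877 in steady promoters, 0.880 in promoters over the band, 0.504 in promoters under the band, 0.486 at starts without a peak and 0.775 over all 19794 starts. A ratio under 0.4 was found at 4.14% of steady starts (217) and 3.28% of starts over the band, against 46.1% under the band (35 of 76), 44.4% without a peak and 24.3% of all starts.

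Motifs of promoter-binding factors were searched in the same starts. CCGGAAG, read by the ETS family, was present on either strand at 24.7% of steady starts (interval 23.6% to 25.9%) and 23.9% of starts over the band, but at 5.26% under the band, 4.73% without a peak and 14.0% of all starts. NRF1, which drives genes of mitochondria and the cell cycle, had its motif at 4.66% of steady starts, 5.62% of those over the band and 2.69% of all. AAGATGGCG, bound by the zinc finger protein YY1, was at 5.46% of steady starts and 3.93% of those over the band (intervals 4.87% to 6.11% and 2.92% to 5.27%), against 0.506% without a peak and 2.83% of all. GGGCGG of SP1 was at 73.1% of steady starts, 76.6% of those over the band and 61.3% of all, the CRE at 3.70%, 3.56% and 2.71%, CACGTG (the E-box) at 10.3%, 12.1% and 8.72%, and CCAAT at 38.0%, 38.5% and 36.0%. Under the band, where there were only 76 starts, the E-box was at 10.5% (5.43% to 19.4%) and CCAAT at 43.4% (32.9% to 54.6%). The intervals of steady promoters and of promoters over the band overlapped for each of the 11 motifs searched, none of which is contained in another. No motif or CpG measure entered the choice of pairs, but a start with a tall peak is by itself a kind of start, and the share of all starts stands beside each value for that reason.

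**Figure D3:**
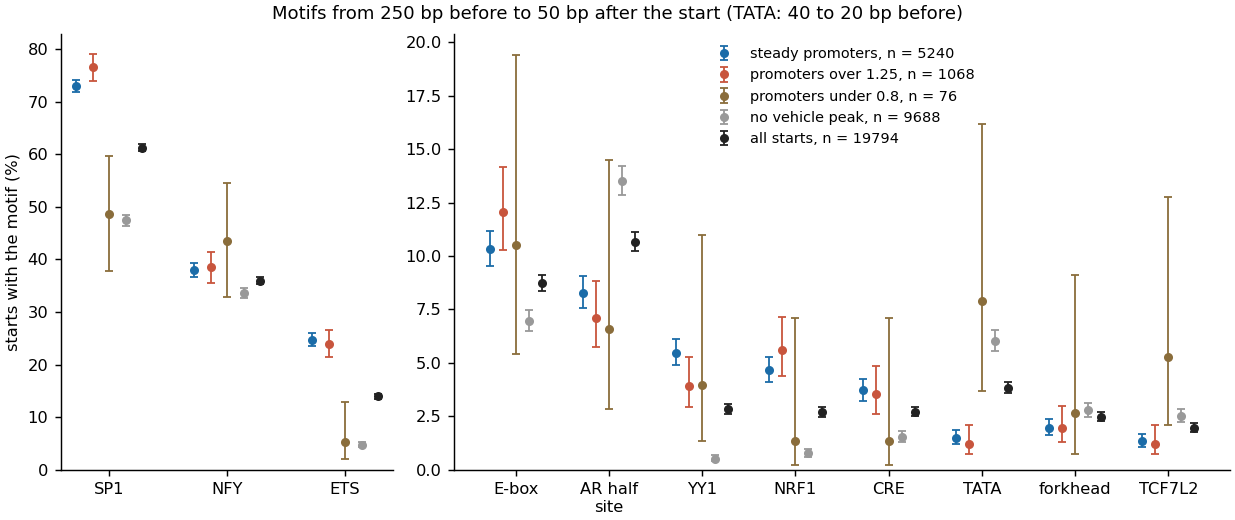
Percent of starts that hold each motif, for starts in steady promoter pairs (blue, 5240), in pairs over the band (red, 1068), in pairs under the band (brown, 76), without a vehicle peak (grey, 9688) and all starts (black, 19794), with 95% Wilson intervals as bars. Blue and red points lie together and apart from grey for ETS (24.7%, 23.9% and 4.73%) and SP1 (73.1%, 76.6% and 47.4%).

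Letters of other factors were rarer in steady promoters than in starts at large. The single androgen receptor repeat AGAACA was at 8.28% of steady starts, 7.12% of those over the band and 10.7% of all starts, and the forkhead motif TGTTTAC, read by FOXA1, at 1.97%, 1.97% and 2.47%. CTTTGAT was at 1.34% of steady starts, 1.22% of those over the band and 1.97% of all. TATAAA, sought only on the strand of the gene between 40 and 20 bp before the start, was at 1.47% of steady starts (77), 1.22% over the band, 7.89% under the band and 3.83% of all. A match says only that the letters are in the window.

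The tallest steady promoters carried fewer of the ETS letters and more TATA boxes than the lower ones. CCGGAAG was at 25.1%, 26.6%, 24.8%, 19.6% and 17.7% of steady starts in the 5 height classes from 26 to 39 tags up to 100 tags or more, and TATAAA at 0.951%, 0.827%, 1.83%, 2.59% and 5.91%. In the lowest and the tallest class the CCGGAAG intervals were 22.9% to 27.3% and 13.4% to 23.1%. Those of TATAAA were 0.567% to 1.59% and 3.55% to 9.67%. The tallest class had 14 starts with TATAAA, among them histone genes that share a pair and so are not independent. Of the 77 steady starts with TATAAA, 15 were histone genes, which lie in clusters and package DNA as it is copied. H2AC20, H2AC21 and H2BC21 shared 1 pair of 156 tags with DHT and 144 with vehicle. H1-4 and H2BC5 shared a pair of 120 and 114 tags, and H2AC12 and H2BC12 a pair of 95 and 97. The 15 genes lay in 9 pairs, from 31 to 156 tags with DHT and from 32 to 144 with vehicle. Histone genes are close copies of each other, and how tags that map to several places were treated is not given in the sources used here.

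The 217 steady starts with a CpG ratio under 0.4 differed from the rest in the lean towards DHT. Among them 125 were taller with DHT, 70 lower and 22 equal, with a median of 59 tags with DHT and 59 with vehicle and a median ratio of 1.04. The 3514 steady starts with a CpG ratio of 0.8 or more had medians of 56 and 51 tags and a median ratio of 1.1. Of all judged CpG-poor promoters (287) 75.6% were steady, 12.2% over and 12.2% under the limits, while of the 4286 with a ratio of 0.8 or more 82.0% were steady, 17.5% over and 0.490% under. CpG-poor steady promoters were often tall, with 80 or more tags at 29% of them against 13.4% in the CpG-rich class. Beside ACP3 and DNAH5 the tall ones included TBX10, a T-box transcription factor (135 tags with DHT, 143 with vehicle), ENO3, the muscle enolase (142 and 133), ZNF385A (126 and 125) and CDH26, a cadherin (105 and 124). These names were taken from the tallest of the class after its values had been seen. A pair can hold starts of both kinds. The pair of SRSF2 (88 and 72) held an annotated start with a CpG ratio of 0.242 beside that of SRSF2, at 1.08. Some heights and ratios of the CpG-poor class are therefore also those of CpG-rich starts.

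The extent of the mark in steady pairs was alike in both lists. The choice by height ratio favours this, because height and width went together in the lists. Pairs over the band had median widths of 3119 bp with DHT and 2789 bp with vehicle, and pairs under the band 2429 and 2639 bp. Steady peaks had a median width of 3269 bp with DHT and 3179 bp with vehicle, and the width ratio had a median of 1.02 (quartiles 0.979 and 1.06). The left edge lay 30 bp further out with DHT at the median and the right edge 30 bp further out, which is 1 bin of the lists. In 3113 pairs (60.2%) both edges moved by at most 150 bp, and 58 pairs had the same edges in both lists. Counted from the chosen start, the vehicle peak reached a median of 1429 bp before it and 1688 bp after it. Inside the peak lay 97.9% of these starts, which the choice of peaks at starts favours. The peak reached farther into the gene than upstream at 3119 of 5240 starts (59.5%).

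Divergent gene pairs, whose starts lie head to head within 1000 bp, were common. They made up 18.3% of steady starts (957), 18.4% of starts over the band, 7.89% of starts under the band and 1.54% of starts without a peak, against 9.33% of all. At divergent starts the peak reached 1776 bp before and 1482 bp after the start at the median, and at other steady starts 1350 and 1735 bp. TBP, the TATA-binding protein, and PSMB1, a proteasome subunit, shared such a pair at chr6:170861010-170864639, with 67 tags with DHT and 57 with vehicle. HSPD1 and HSPE1, the mitochondrial chaperonin and its partner, shared 109 and 92 tags. Of all steady pairs 4274 held the starts of 1 gene, 830 of 2, 56 of 3 and 7 of 4, so genes are not independent readings of the mark.

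Genes of basic cell machinery were often found among the steady promoters. The general transcription factors, which place RNA polymerase II at the start, had steady peaks at 21 of 27 genes, 1 pair over the band (TAF1, 52 tags with DHT and 40 with vehicle) and 5 genes under 26 tags. The steady ones ran from GTF2H2 (103 and 101) to GTF2F2 (26 and 26). RNA polymerase II itself had 7 of 12, from POLR2H (113 and 94) to POLR2L (31 and 30), and none outside the ratio limits. Both lists stood above the background of 28.6% of all genes, but 46.5% of all genes have no vehicle peak at the promoter, and among genes with a judged promoter pair 82.8% were steady.

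Core spliceosome genes were steady at 24 of 31, with SF3B4 tallest (99 tags with DHT, 93 with vehicle) and PRPF4 lowest (29 and 27), and SNRPA (42 and 30) and SNRPD2 (37 and 26) were over the band. Translation initiation factors were steady at 20 of 32, from EIF2B5 (152 and 142) to EIF3G (32 and 26). Cytosolic aminoacyl-tRNA synthetases, which load tRNAs with amino acids, were steady at 14 of 20, from YARS1 (106 and 98) to FARSA (33 and 30). Cytosolic ribosomal proteins had 46 of 82, with RPL41 tallest (112 and 98), and 23 more were too wide or not exclusively paired. Mitochondrial ribosomal proteins also had 46, of 78, and there 22 were under 26 tags. MRPL48 was the tallest of these (117 and 112), and MRPL58 was the only gene of the lists named so far under the band (97 and 129). Among genes with a judged promoter pair the steady shares, in the order of these lists, were 92.3%, 87.0%, 82.4%, 88.5% and 85.2%. The 95% interval of each list held the 82.8% of all judged genes.

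Energy metabolism, protein folding and turnover, transcription and replication gave further lists. Tricarboxylic acid cycle enzymes were steady at 12 of 17, with SUCLG1 lowest (32 tags with DHT, 29 with vehicle), while OGDH, of the oxoglutarate dehydrogenase complex, stood at 103 and 47. Complex I of the respiratory chain had 20 of 37, from NDUFV2 (109 and 106) to NDUFA5 (34 and 32). Proteasome subunits were steady at 16 of 32, from PSMD7 (105 and 100) to PSMD11 (31 and 28), with 6 over the band, and chaperonin subunits at 6 of 8, from CCT3 (100 and 86) to CCT2 (35 and 32). Mediator, which links enhancer-bound factors to polymerase, was steady at 15 of 30, from MED18 (82 and 70) to MED25 (32 and 27), with 6 over the band. Replicative helicase and origin proteins had 8 of 20, from MCM7 (72 and 61) to MCM5 (29 and 28). Of the 15 common housekeeping reference genes 8 were steady, 3 were too wide, and B2M (49 and 35) was over the band. Among judged genes the steady share was 80% for the tricarboxylic acid cycle and complex I, 72.7% for the proteasome and 85.7% for the chaperonin. For mediator it was 71.4%, for replication 72.7% and for the housekeeping genes 88.9%. Here too the interval of each list held the 82.8% of all judged genes.

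**Figure D4:**
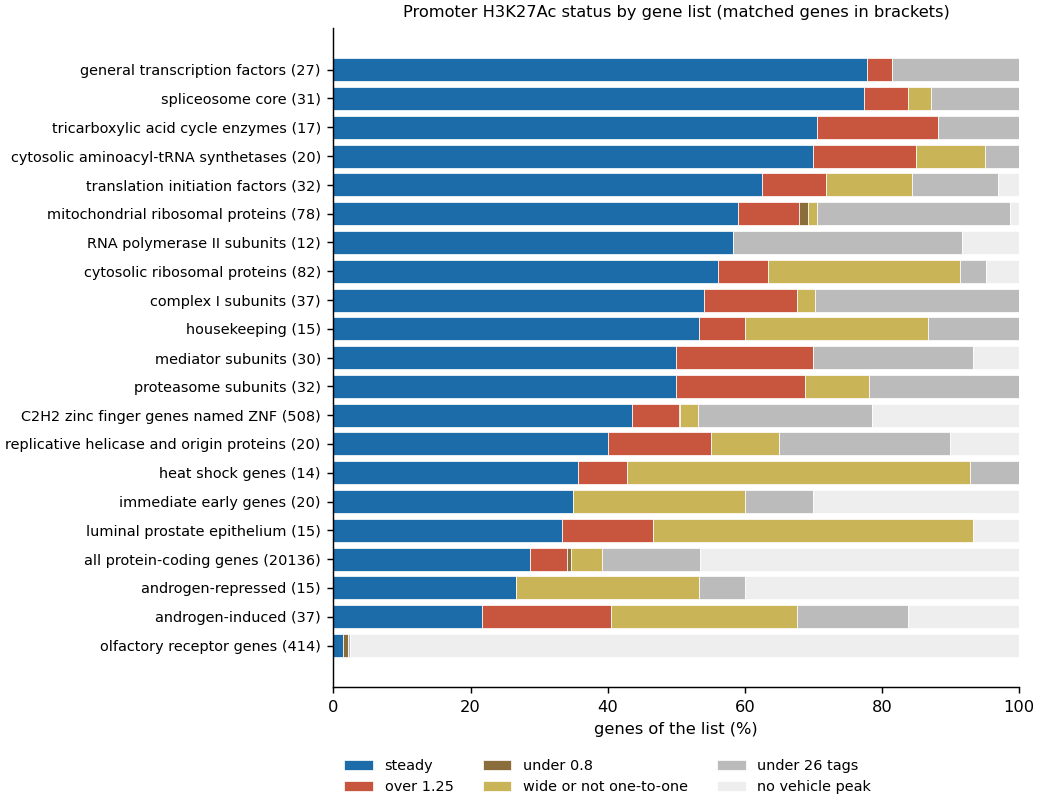
Share of the genes of each list by the state of the promoter peak, with the number of matched genes in brackets, for lists of 12 or more genes and for all 20136 genes. Steady promoters (blue) take 21 of 27 general transcription factors, 8 of 37 androgen-induced genes and 6 of 414 olfactory receptor genes, against 28.6% of all genes.

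Counted over all their genes, lists of inducible genes were near the 28.6% of all genes. Immediate early genes, which respond to stimuli within minutes, had steady promoters at 7 of 20 (35%) and none outside the limits, with JUN at 106 tags with DHT and 89 with vehicle, IER2 at 100 and 91, JUND at 91 and 85, JUNB at 75 and 69 and NR4A1, the lowest, at 46 and 41. Heat shock genes were steady at 5 of 14 (35.7%) and 7 were too wide or not exclusively paired. HSPA5, the chaperone of the endoplasmic reticulum, was over the band with 46 and 35 tags. Of 508 C2H2 zinc finger genes named ZNF, 221 were steady (43.5%, ZNF24 tallest, with 145 and 144 tags) and 109 had no vehicle peak. Among judged genes the steady share was 100% of 7 immediate early genes, 83.3% of 6 heat shock genes and 86.0% of 257 ZNF genes. The interval of each held the 82.8% of all judged genes. Of 414 olfactory receptor genes, which are read in the nose, 404 had no peak, 6 were steady and 3 were under the band (beside 0.556% of all genes). The steady ones were 66.7% of 9 judged genes (interval 35.4% to 87.9%) and had a median ratio of 0.913. OR4K5 was the tallest of the 6 (75 and 83), and 3 of the 6 (OR4F21, OR4F29 and OR4F3) were near-identical copies whose tags cannot be told apart with certainty.

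Known androgen-induced genes stood on both sides of the limit. Of 37 genes on the list, 8 were steady (21.6%, beside 28.6% of all genes) and 7 were over the band (beside 5.39% of all genes), and the rest were too wide or not exclusively paired (10), under 26 tags (6) or without a vehicle peak (6). Over the limit were, among others, KLK4, a kallikrein protease (103 tags with DHT, 44 with vehicle), SLC45A3, a prostate membrane protein (106 and 48), ZBTB10 (77 and 40), PMEPA1, which dampens TGF-beta signalling (45 and 28), HOMER2 (62 and 41) and SORD, sorbitol dehydrogenase (121 and 89). All 7 had more tags with DHT, as the limit requires.

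The 8 steady ones had promoters that were tall already with vehicle in some and low in others. GREB1, an androgen- and estrogen-responsive coactivator, had 151 tags with DHT and 123 with vehicle, NDRG1, a stress-responsive gene, 110 and 101, and UAP1, of the hexosamine pathway, 105 and 106. ACSL3, a fatty acid CoA ligase, had 65 and 59 tags, HERC3 62 and 53, PLPP1, a lipid phosphatase, 46 and 45, MED28 38 and 36, and NCAPD3, of condensin II, 37 and 36. At 4 of these 8 genes the list of pairs held another pair over the band within 50 kb of the steady promoter, as it did for 22.4% of all steady promoters. The highest with DHT near each was 138 tags with DHT and 57 with vehicle at GREB1, 154 and 108 at UAP1, 136 and 90 at HERC3, and 76 and 59 at NDRG1. No such pair lay within 50 kb of ACSL3, PLPP1, MED28 or NCAPD3.

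Androgen-repressed genes were steady at 4 of 15, and none was outside the ratio limits. ST7 had 88 tags with DHT and 85 with vehicle, UGT2B11 69 and 66, UGT2B28 68 and 59, and SCARB1, the lipoprotein receptor, 32 and 34. UGT2B11 and UGT2B28, of the UGT2B family of glucuronidation enzymes, are close copies, and tags may have been shared between them. The 8 of 37 and 4 of 15 steady genes of the androgen lists were 21.6% and 26.7%, beside 28.6% of all genes. Among genes with a judged promoter pair, 8 of 15 androgen-induced genes (53.3%, interval 30.1% to 75.2%) and all 4 androgen-repressed genes were steady, beside 82.8% of all judged genes.

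Lineage genes gave a check of the label of the cells. Of 15 luminal prostate genes 5 were steady (33.3%, interval 15.2% to 58.3%, beside 28.6% of all genes), with ACP3 at 156 tags with DHT and 161 with vehicle, the pair shared by KRT8 and KRT18, the luminal keratins, at 112 and 94, SPDEF, an ETS factor of luminal cells, at 66 and 59, and EPCAM, an epithelial adhesion protein, at 52 and 58. The chosen start of KRT8 lay in another steady pair, of 92 tags with DHT and 91 with vehicle. A further 7 luminal genes had peaks that were too wide or not exclusively paired. Over the band were 2 of the 15, beside 5.39% of all genes, and 1 had no vehicle peak, beside 46.5% of all genes. None of 5 basal epithelial, 5 leukocyte or 5 neuroendocrine genes was steady, and 4 of each 5 had no vehicle peak. The remaining leukocyte gene had a promoter peak of 8000 bp or wider, and the remaining basal and neuroendocrine genes had peaks under 26 tags. In stroma and endothelium the exceptions were COL1A1 (37 and 34) of 6 genes and CDH5 (47 and 47) of 3. The endothelial share, 33.3% (6.15% to 79.2%), equalled the luminal one, so steady shares of such short lists do not separate these cell types.

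Over the whole set the surroundings of steady promoters held changes too. A pair over the band lay within 50 kb of 22.4% of steady promoters (1158, interval 21.3% to 23.6%), 32.5% of promoters over the band (29.8% to 35.3%) and 9.77% of promoters under the band (6.19% to 15.1%). A DHT peak of 29 or more tags that overlapped no vehicle peak, of which there were 716, lay within 50 kb of 2.07% of steady promoters (107), 3.88% of those over the band and 2.87% of those under the band. Neither was present near 3931 steady promoters (76.1%). Pairs under the band were not looked for, though they made up 20.2% of all judged pairs, against 17.7% over it. The 76.1% is therefore not a share with unchanged surroundings. Gene-dense regions bring promoters and other peaks close together, and their part in these shares was not tested.

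TCF7L2 peaks overlapped 34.5% of steady promoters (1783 of 5167, interval 33.2% to 35.8%), 27.7% of promoters over the band (25.1% to 30.4%), 6.32% of promoters under the band (3.57% to 11%) and 11.3% of steady pairs away from promoters (10.7% to 12%). Of all 6424 judged promoter pairs 32.6% overlapped one (31.5% to 33.8%). TCF7L2 was measured in serum with androgens, so this is a comparison between cultures. Taller steady promoters overlapped more often, from 30.2% at 26 to 39 tags to 44.4% at 80 to 99 tags, and 38.4% at 100 or more. In the lowest class promoters over the band were at 25.8% (22.5% to 29.5%) and in the next at 33.0%, against 32.3% of steady ones, and at 60 to 79 tags they were at 22.4% (15.3% to 31.7%), against 38.6% (35.7% to 41.6%), so the order of these 2 classes of promoter was not the same at every height. Steady promoters with a TCF7L2 peak were taller, at 60 tags with DHT and 54 with vehicle against 53 and 49 without one, and wider with vehicle (3359 and 3089 bp), and had a median ratio of 1.1 in both cases.

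**Figure D5:**
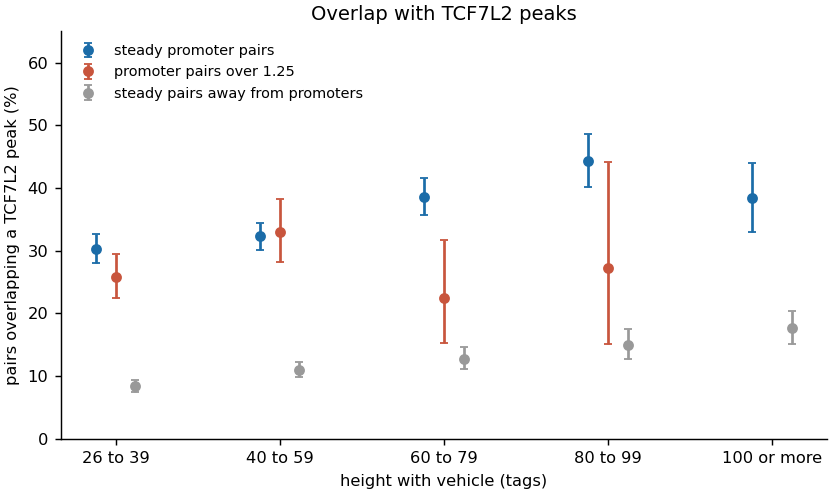
Percent of pairs that overlap a TCF7L2 peak, by height with vehicle in tags, for steady promoter pairs (blue), promoter pairs over the band (red, classes of 30 or more pairs) and steady pairs away from promoters (grey), with 95% Wilson intervals as bars. Blue lies above grey in all 5 height classes, from 30.2% against 8.40% in the lowest to 38.4% against 17.6% in the tallest.

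The TCF7L2 peaks in steady promoters were low and close to starts, and so were those in promoter pairs over the band. Both kinds of pair were chosen to lie at starts, which by itself favours nearness. The tallest such peak of a promoter had a median of 27 tags, against 36.5 in steady pairs away from promoters. Of the 1783 promoters 1515 held 1 TCF7L2 peak and 268 held more, up to 5. The 2093 TCF7L2 peaks lay a median of 133 bp from the nearest start, and 66.0% were within 250 bp of it. Within 100 bp of their middle 6.35% held CTTTGAT (interval 5.39% to 7.48%), against 11.5% of TCF7L2 peaks in vehicle peaks away from promoters and 15.1% of those in no vehicle peak. CCGGAAG, the ETS motif, was there in 16.9% of them (15.4% to 18.6%), 1.63% and 1.47%. In all steady starts, from 250 bp before to 50 bp after, CCGGAAG was at 24.7% and CTTTGAT at 1.34%. From 100 bp before to 50 bp after the start CCGGAAG was at 19.2%. The 16.9% thus did not exceed the share at steady starts, and the part of promoter sequence in these differences was not tested. The 343 TCF7L2 peaks in promoter pairs over the band lay a median of 115 bp from a start, 67.6% of them within 250 bp. Among those 343, CTTTGAT was in 5.83% (3.81% to 8.83%) and CCGGAAG in 12.5% (9.44% to 16.5%). Among TCF7L2 peaks of 60 or more tags CTTTGAT was in 14.9% of 215 in steady promoters (10.7% to 20.3%) and in 14.8% of 917 in vehicle peaks away from promoters.

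The tallest TCF7L2 peaks in steady promoters lay at genes of many roles. SLC25A28, a mitochondrial iron carrier, had a TCF7L2 peak of 201 tags and H3K27Ac heights of 63 with DHT and 57 with vehicle. CTSB, a lysosomal protease, had 188 tags of TCF7L2 and 86 and 78 of H3K27Ac. RPS27, a ribosomal protein, had 179 tags of TCF7L2 and 41 and 35, and GCLC, the first enzyme of glutathione synthesis, had 179 tags and 35 and 40. This GCLC pair, at chr6:53479530-53481869, did not hold the chosen start of GCLC. That start, at chr6:53409899, lay in another steady pair, of 31 tags with DHT and 33 with vehicle. AXIN2, a feedback inhibitor of the Wnt pathway and a standard target of TCF7L2, had 162 tags of TCF7L2 and an H3K27Ac pair of only 41 and 35. SECTM1 (174 tags of TCF7L2), MIA3 (172), ANXA2 (171), HINT3 (170) and DNMBP (161) completed the 10, with H3K27Ac heights between 45 and 110 tags with DHT and between 41 and 119 with vehicle. CTTTGAT was near the middle of 3 of the 10 peaks, those of SLC25A28, RPS27 and GCLC shown above, at 58, 119 and 1054 bp from the nearest start. AXIN2 had none within 100 bp of the middle of its wide peak, which says nothing of the rest of that peak.

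Pairs shared by the most genes joined neighbours without a common role. The pair of BOLA1, H2AC20, H2AC21 and H2BC21 was the tallest of those with 4 genes, followed by that of ABHD14A, ABHD14B, PCBP4 and the read-through ABHD14A-ACY1 (103 tags with DHT, 93 with vehicle). SRSF2, a splicing factor, METTL23 and MFSD11 shared 88 and 72 tags with another annotated gene, BAG5, COA8 and KLC1 shared 57 and 48 with another, and the pair of BORCS8, MEF2B, RFXANK and a read-through had 46 and 38. The pair of ADAM21, COX16, SYNJ2BP and a read-through had 37 and 38, and that of KRIT1, ANKIB1 and further annotated genes 44 and 37. Among pairs with 3 genes the tallest were that of ARID4B and GGPS1 (145 and 118), that of NUMA1, LRRC51 and LRTOMT, with a height ratio of 0.991, and that of PRRC2A, with a ratio of 1.05. Of these 10 pairs 8 were taller with DHT.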

How the data were processed

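ChIP-seq peak lists of 3 LNCaP libraries were used, 2 for H3K27Ac (DHT and vehicle) and 1 for TCF7L2. By the paper the authors aligned H3K27Ac reads with Bowtie 2 and TCF7L2 reads with ELAND to hg19, whereas for every library the processing notes list CASAVA 1.8.2, BWA and Bowtie2. The authors called peaks in each library separately with Sole-search, with a false discovery rate of 0.0001 with a blur length of 1200 for H3K27Ac and 0.001 for TCF7L2. The deposited value of a peak is a signal, its height in whole tags, in bins of 30 bp, and no scaling to depth is given in the sources used here. The number of reads of each library is unknown.

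Starts of transcripts typed protein-coding came from GENCODE 44 mapped to GRCh37, which is hg19, and 0 peaks ended past a chromosome. Genes were counted by symbol. Of 407 gene symbols listed by name, 1 was matched through an older symbol in the RefSeq table and 1 was not matched. Where a gene touched several peaks, a steady one was taken first and then the tallest. Sequences were read from GRCh37. For sequence features 1 start was taken per gene, the canonical transcript where GENCODE marks one. Shares carry 95% Wilson intervals and height ratios exact binomial intervals, both for counting error only. With 1 library per condition no test was made and "called" means inside or outside the ratio limits.

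The pairs and the gene lists were chosen with earlier results of these data known. The genes named were the 10 tallest pairs, the 3 pairs nearest to each limit on either side, the tallest and the lowest of each gene list (not all are given), all steady genes of the androgen and luminal lists, the 10 with the tallest TCF7L2 peak, the tallest with each motif and the 10 shared by most genes. Some genes that this rule takes are not reported here. Other genes were named after their values had been seen. The overlap and selection code was tested on simulated peaks and against bedtools 2.31.1. Software was scipy 1.17.1, numpy 2.4.6, pyfaidx 0.9.0.4, pandas 2.3.3 and matplotlib 3.10.9 under Python 3.11.15, and samtools 1.23.1. Alternatives covered the overlap, the limits, the promoter window, the starts and the TCF7L2 peaks.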

Additional observations from a re-analysis of the deposited data

How the results depend on the processing

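The number of steady promoter pairs stayed within 1.5 times of 5167, and of 5768 genes, under 9 of 10 alternatives. The exception was a band from 0.9 to its inverse, which left 2574 pairs at 2943 genes and 40.1% of the judged promoter pairs. The steady share of judged promoter pairs, 80.4%, was 96.5% with a ratio of 0.67 to 1.5, 84.0% with DHT heights divided by the median ratio, 86.2% with 40 or more tags with vehicle, 76.6% with 29 or more tags with DHT in place of the vehicle limit, 79.2% with starts widened to 2000 bp on both sides and 78.0% with the starts of all transcripts. Under the same settings pairs away from promoters were steady less often wherever both shares were computed, for example 53.0% after dividing by the median ratio and 79% with a ratio of 0.67 to 1.5. The share of steady promoters with a TCF7L2 peak, 34.5%, was 33.1% with a ratio of 0.67 to 1.5 and 33.1% with starts widened to 2000 bp, 36.3% with 40 or more tags, 32.4% with all starts and 22.4% with only the 15000 tallest TCF7L2 peaks. With a window from 100 bp before to 50 bp after the start the ETS motif was at 19.2% and NRF1 at 3.13% of steady starts. With every protein-coding start these were 21.6% and 3.82%, and a CpG ratio under 0.4 was at 9.15%. The counts of the gene lists stayed within 1.5 times in 51 of 52 alternatives, and the exception was endothelium, with 0 genes for a window of 500 bp before the start. The share of steady pairs taller with DHT, 79.8%, was 77.0% of the 5394 pairs in the band after dividing by the median ratio, 82.5% among peaks of 50% to 55% GC and 81.2% with a ratio of 0.67 to 1.5, all 3 chosen after the data had been seen. No paired analysis was possible because each condition had 1 library. Depth is unknown, and at these tag numbers no single promoter could be shown to lie within the ratio limits.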
